A study of Mus musculus with 2 samples.

Results

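The 41 genes described here encode the urea cycle and the enzymes that make, break down and interconvert amino acids in the liver. They were listed by name and matched by symbol, through a GENCODE mouse annotation, to the gene tables of both libraries. All 41 were found, out of 43346 genes in the tables and 21474 protein-coding genes with a match. They comprise 6 urea cycle genes, 5 synthesis genes, 15 breakdown genes (8 for aromatic amino acids and 7 for others), 6 genes of the methionine cycle and transsulfuration, 5 of glycine cleavage and serine hydroxymethyl transfer, and 4 aminotransferases.

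The tissue was whole embryonic liver at day 14, from pooled male and female littermates of the strain C57BL/6J, with no treatment or altered allele named in the labels. There was 1 group, of 2 libraries labelled biological replicates 1 and 2. They share a donor entry, and no label says that they came from separate litters, so their spread may be technical. RNA over 200 nucleotides was enriched for polyadenylated molecules and sequenced as stranded read pairs. Levels are given as TPM, a share of all transcripts that is already corrected for transcript length, so genes can be compared within a library.

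The urea cycle disposes of ammonia in hepatocytes. Carbamoyl phosphate synthetase 1 and ornithine transcarbamylase work in the mitochondrion, and the later steps in the cytosol. Adult liver also breaks down most amino acids, largely in response to feeding, glucocorticoids and glucagon, and many of these enzymes are known to be switched on around birth. Dividing cells instead make serine, glycine and one-carbon units for nucleotides, and several genes of that synthesis are known targets of the stress-responsive factor ATF4.

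The tissue label was checked against its markers. All 10 fetal hepatocyte markers stood above 50 TPM in both libraries (median 1036 TPM in replicate 1 and 1207 in replicate 2). So did all 9 erythroid markers found (451 and 531), since the liver at this age is also a blood-forming organ. Summed levels had the reverse order, with 432348 and 395147 TPM for erythroid markers and 24503 and 27951 for hepatocyte markers. Hba-a2, a globin gene, alone held 202668 and 179965 TPM, which leaves a smaller share of TPM to all other genes. Expected counts on genes came to 97174777 and 149348514. Skeletal muscle markers, 9 of 9, were higher in replicate 1 (summed level 110 TPM against 15.4), as were 7 of 8 stellate and mesenchymal markers (196 against 141). In such bulk RNA, fewer cells of a type and less RNA per cell cannot be told apart.

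Promoter sequences are shown for the 4 synthesis genes of highest level, for Tat, a breakdown gene near silence, and for Got1, because they show which members carry the amino acid response element TGATGNAA that ATF4 is known to bind. RefSeq promoters on GRCm38.p6 were found for 32 of the 41 members. Each sequence below is the 150 bases before the annotated start, 5′ to 3′ on the gene's strand, with matches on either strand to TGATGNAA, to CCAAT (reverse ATTGG) and to TATAAA in capitals. A run of capitals at an end may be cut short.
Asns (chr6:7693210-7693359, minus strand): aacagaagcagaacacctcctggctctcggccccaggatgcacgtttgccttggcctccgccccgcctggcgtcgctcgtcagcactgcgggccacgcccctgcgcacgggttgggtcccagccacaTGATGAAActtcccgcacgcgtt
Got1 (chr19:43524606-43524755, minus strand): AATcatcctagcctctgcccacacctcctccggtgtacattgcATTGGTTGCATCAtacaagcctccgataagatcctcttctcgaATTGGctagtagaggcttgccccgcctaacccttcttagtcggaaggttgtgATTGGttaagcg
Phgdh (chr3:98339970-98340119, minus strand): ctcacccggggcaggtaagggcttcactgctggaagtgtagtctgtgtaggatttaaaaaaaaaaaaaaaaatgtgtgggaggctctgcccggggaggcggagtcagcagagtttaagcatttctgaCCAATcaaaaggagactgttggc
Psat1 (chr19:15925060-15925209, minus strand): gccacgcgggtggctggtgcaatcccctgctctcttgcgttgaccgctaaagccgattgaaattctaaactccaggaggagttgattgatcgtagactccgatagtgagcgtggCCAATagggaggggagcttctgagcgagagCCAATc
Glul (chr1:153899779-153899928, plus strand): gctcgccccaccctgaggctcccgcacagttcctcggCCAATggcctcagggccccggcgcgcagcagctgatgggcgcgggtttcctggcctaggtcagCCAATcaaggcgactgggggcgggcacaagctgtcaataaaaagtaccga
Tat (chr8:109990286-109990435, plus strand): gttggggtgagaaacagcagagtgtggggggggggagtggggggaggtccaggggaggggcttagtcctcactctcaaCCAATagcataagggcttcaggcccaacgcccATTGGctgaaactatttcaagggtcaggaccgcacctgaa
Over the window from 250 bases before to 50 bases after the start, TGATGNAA occurred in 2 of the 32 members, Asns (first base of the match at -23) and Got1 (-102), and in 4.06% of all 27025 promoters. CCAAT occurred in 19 of the 32 (59.4%) and in 38.0% of all promoters. TATAAA was in 6 of 32 members and 14.2% of all, and the E-box CACGTG in 2 of 32 and 7.24% of all. No match says only that these letters are not in this window.

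Of the 41 members, 37 reached 1 TPM in both libraries (50.6% of protein-coding genes did), 25 reached 10 TPM (22.9% of protein-coding genes), 8 reached 50 TPM and 2 reached 100 TPM. Their median was 14.2 TPM in replicate 1 and 16.0 in replicate 2, beside 1.17 and 1.20 for all protein-coding genes. The 4 members under 1 TPM in both were Cps1, Tat, Tdo2 and Sds, 1 from the urea cycle and 3 from breakdown. Synthesis genes had the highest median, 77.8 and 86.2 TPM, and all 5 stood above 10 TPM. Glycine and folate genes were at 25.9 and 29.9 TPM, the methionine cycle at 17.5 and 21.5, and the urea cycle at 13.2 and 14.7. The lowest medians were those of the aminotransferases (8.69 and 9.46), aromatic breakdown (7.47 and 8.82) and other breakdown (4.30 and 5.36).

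Within each library the median of the synthesis genes was set against that of the breakdown genes. The log2 ratio was 4.02 in replicate 1 and 3.84 in replicate 2, a mean of 3.93 ± 0.13 (SD, n = 2) or 15.2-fold. Synthesis exceeded the urea cycle by 2.55 in both, or 5.87-fold, and the urea cycle exceeded breakdown by 1.38 ± 0.13 (SD, n = 2), or 2.60-fold. Synthesis over breakdown depends on which genes count as breakdown: with the 3 members under 1 TPM left out it was 2.82, with the glycine cleavage genes added it was 3.21, and with the methionine cycle added, a choice made after the data were seen, 2.74. Synthesis stayed the higher side each time. The lists are small, and with only 2 libraries these ratios were not tested. The RNA mixes hepatocytes, blood-forming and other cells. These ratios, and those of paired genes below, therefore do not tell which cells hold each gene.

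**Figure D1:**
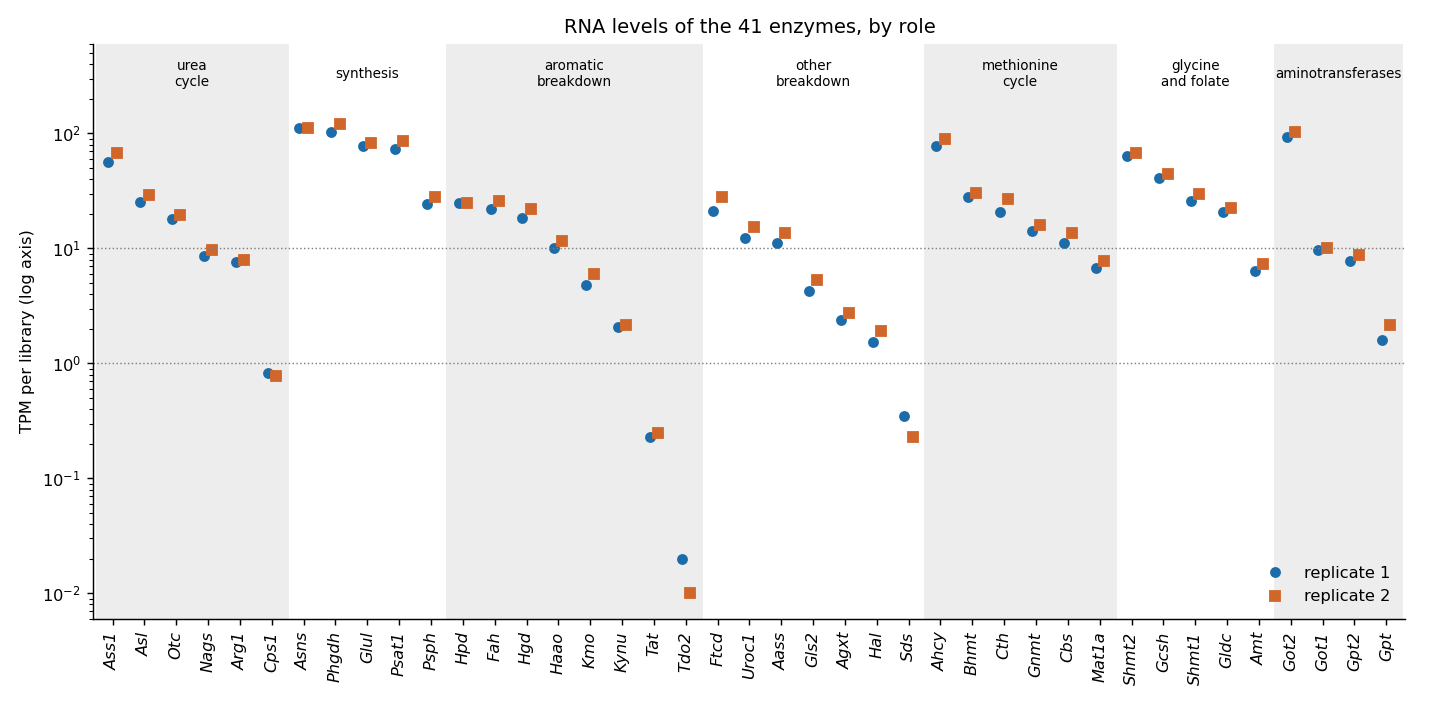
TPM of each of the 41 genes (log axis) in replicate 1 (circles) and replicate 2 (squares), grouped by role and ordered by mean level, with dotted lines at 1 and 10 TPM. The synthesis genes lie between 24.5 and 121 TPM, while aromatic breakdown runs from Hpd at about 25 TPM down to Tdo2 at 0.01 to 0.02.

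Asns, which makes asparagine from aspartate (chr6:7675169-7693254, GRCm38, minus strand), stood at 112 TPM in both libraries, the highest mean of all members and rank 566 among protein-coding genes. Phgdh, which opens the path from glycolysis to serine (chr3:98313170-98339990), stood at 103 and 121 TPM. Psat1, the next enzyme of that path, was at 73.4 and 86.2 TPM and Psph, the last, at 24.5 and 28.2, so that levels fell from step to step in both libraries. This order turned in the older mm9 gene table, where Phgdh, which has near-copies in the genome, stood at 7.03 and 8.17 RPKM, below Psat1 at 26.2 and 32.4. Glul, glutamine synthetase (chr1:153899944-153909723), was at 77.8 and 82.6 TPM. Its total held a 379-base transcript, Glul-203, that took 33.2% and 28.9% of the gene's TPM but only 519 of its 16654 expected counts in replicate 1. The long coding form Glul-201 alone stood at 50.3 and 56.5 TPM.

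Cps1, the mitochondrial enzyme that brings ammonia into the urea cycle (chr1:67123026-67231259, plus strand), stood at 0.83 TPM in replicate 1 and 0.78 in replicate 2, on 550 and 749 expected counts, rank 11391. Every other gene of the cycle was at least 9.17-fold above it in both libraries. Otc, the X-linked mitochondrial enzyme that makes citrulline, was at 17.9 and 19.6 TPM, 21.5-fold and 25.2-fold above Cps1. Ass1, which joins citrulline to aspartate, was the highest at 55.9 and 67.4 TPM, but in the mm9 gene table it stood at 2.31 and 2.98 RPKM, below Otc at 4.67 and 6.46 and Asl at 3.85 and 5.84. Asl, which releases arginine, was at 25.6 and 28.9, and Arg1, the cytosolic arginase that forms urea, at 7.61 and 7.95. Nags, which makes the activator that Cps1 needs, stood at 8.60 and 9.70 TPM.

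Reads on Cps1 covered the whole gene, though not evenly. Counts were higher towards the 3′ end, with 8 and 17 junction reads over intron 1, 52 and 47 over intron 36 and 25 and 26 over intron 37. In the mm9 junction list all 37 of its introns had reads in both replicates of that list, with a median of 14 and 18 reads per intron. Cad, whose carbamoyl phosphate synthetase serves pyrimidine synthesis, stood at 15.4 and 15.7 TPM, 18.5-fold and 20.1-fold above Cps1. Arg2, the mitochondrial arginase, was near silence at 0.03 and 0.06 TPM on 4 and 13 counts.

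Breakdown genes ran from 0.01 to 27.9 TPM. Tat, which removes the amino group of tyrosine (chr8:109990437-109999803, plus strand), stood at 0.23 and 0.25 TPM on 62 and 97 counts. The enzymes after it were far higher: Hpd, which makes homogentisate, at 24.8 and 25.0 TPM, Hgd, which opens its ring, at 18.5 and 22.2, and Fah, which makes the last cut, at 22.0 and 25.9. Gstz1, which lies between Hgd and Fah and is not a member, was at 62.7 and 72.2.

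Tdo2, tryptophan dioxygenase (chr3:81957090-81976202), had 4 expected counts in replicate 1 and 8 in replicate 2, or 0.02 and 0.01 TPM at the 2 decimals of the tables. Only 1 of its 12 introns had reads in both replicates of the junction list. The other entry enzymes Ido1 and Ido2 were no higher than 0.03 TPM in either library. Later enzymes of the kynurenine path were present: Afmid at 7.08 and 7.81 TPM, Kmo, which hydroxylates kynurenine, at 4.78 and 6.03, Kynu, which cleaves kynurenine and its hydroxy form, at 2.07 and 2.17, and Haao, which opens the next ring on the way to NAD, at 10.2 and 11.6.

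Hal, which deaminates histidine (chr10:93488768-93519304), stood at 1.53 and 1.90 TPM, below Uroc1 (12.3 and 15.5) and Ftcd (20.96 and 27.9), the urocanate and formiminoglutamate enzymes of the same path. Its protein-coding transcript reached only 0.48 and 0.56 TPM, and a processed transcript of 851 bases took 51.1% and 51.3% of the gene's TPM. In replicate 1 this short form held only 61.4 of the 435 expected counts of Hal, and the protein-coding one 302. Sds, serine dehydratase, was at 0.35 and 0.23 TPM on 32 and 38 counts, and Phgdh exceeded it 293-fold and 524-fold. Gls2, the liver glutaminase, was at 4.30 and 5.36 TPM, Aass, which starts lysine breakdown, at 11.1 and 13.6, and Agxt, which removes glyoxylate in the peroxisome, at 2.37 and 2.73.

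Levels were then read along each pathway in the order of its reactions, a layout chosen after the values had been seen and therefore only a description. In 5 of 7 pathways the enzyme of the first step was the lowest in both libraries. The median of the later steps was 26.2-fold and 31.1-fold above Cps1, 102-fold above Tat in both libraries and 8.06-fold and 8.14-fold above Hal. No fold is given for Tdo2 because of its few counts. The gap was smallest for methionine, where Mat1a, the liver enzyme that makes S-adenosylmethionine, lay 2.61-fold and 2.77-fold below the later steps. Mat2a, the other gene for this reaction, stood at 73.1 and 82.7 TPM, above every later step but Ahcy. Methionine therefore counts only for the liver form. The exceptions were serine synthesis, where Phgdh was the highest in these tables but not in the mm9 table, and glycine cleavage, where Amt was the lowest. Which reaction is taken as the start of a pathway, and which gene stands for it, is a choice, and the count of pathways depends on it.

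**Figure D2:**
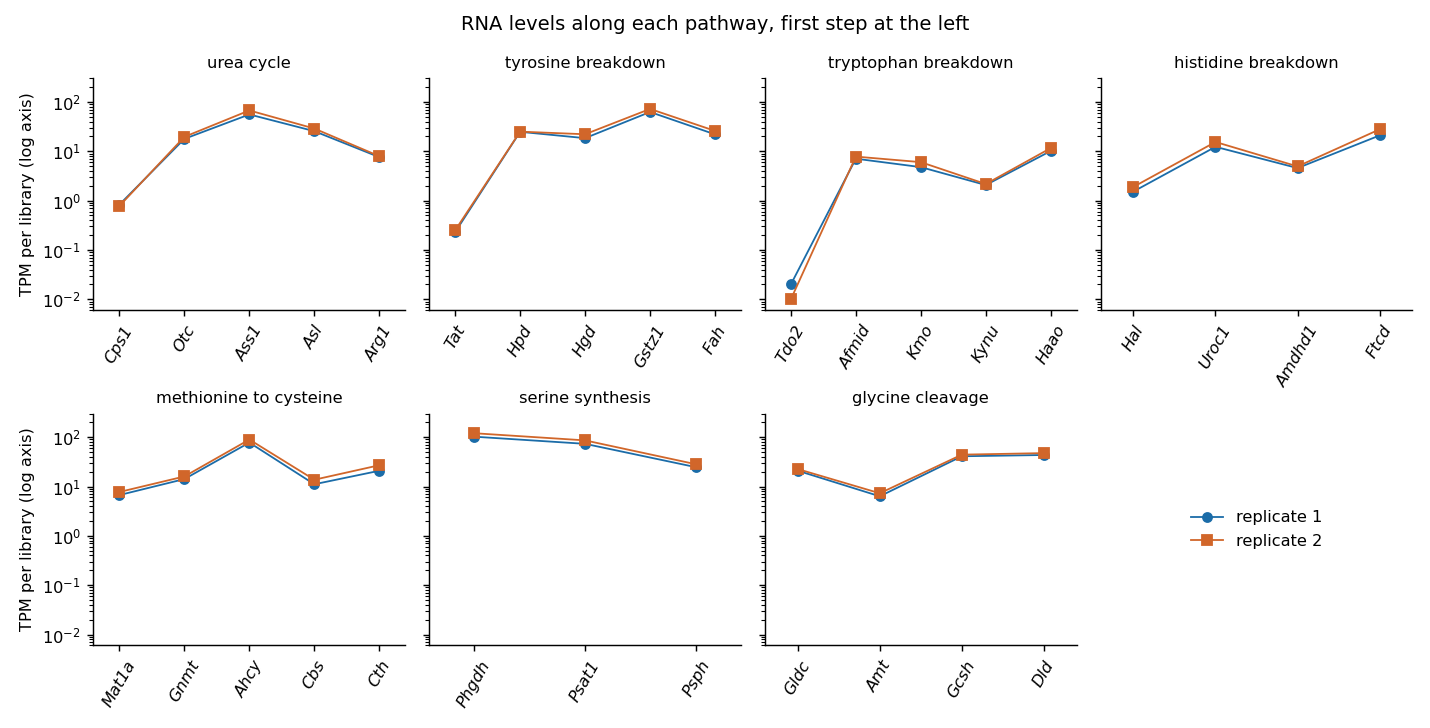
TPM (log axis) of the enzymes of 7 pathways, from the first step at the left to the last at the right, in replicate 1 (circles) and replicate 2 (squares). Cps1, Tat, Tdo2, Hal and Mat1a lie below the other enzymes of their pathways, and Phgdh lies above Psat1 and Psph.

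In the methionine cycle, Ahcy, which hydrolyses S-adenosylhomocysteine, was the highest member at 77.8 and 89.5 TPM. Bhmt, which remethylates homocysteine with betaine, was at 28.0 and 30.3 TPM, and Cth and Cbs, the transsulfuration enzymes that lead to cysteine, at 20.9 and 27.0 and at 11.1 and 13.7. Gnmt, a methyl sink of adult liver, was at 14.2 and 16.0 TPM and Mat1a at 6.71 and 7.75. Bhmt lies beside Bhmt2 and Dmgdh on chromosome 13, and these neighbours stood at 12.5 and 14.7 and at 9.40 and 10.7 TPM.

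Among glycine and folate genes, Shmt2, the mitochondrial serine hydroxymethyltransferase, stood at 63.0 and 68.0 TPM and Shmt1, the cytosolic one, at 25.9 and 29.9. The glycine cleavage genes ranged from Amt at 6.34 and 7.30 TPM, through Gldc at 20.9 and 22.6, to Gcsh at 41.1 and 44.3. Of the aminotransferases, Got2 stood at 93.3 and 102 TPM, Got1 at 9.63 and 10.1, Gpt2 at 7.75 and 8.82 and Gpt at 1.60 and 2.16. Levels of the mitochondrial form were higher for all 3 of these enzyme pairs.

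Paired enzymes were compared within each library as log2 ratios of TPM. Mitochondrial over cytosolic aspartate aminotransferase, Got2 over Got1, gave 3.31 ± 0.05 (SD, n = 2), and alanine aminotransferase, Gpt2 over Gpt, gave 2.15 ± 0.17. Shmt2 over Shmt1 gave 1.23 ± 0.07. For methionine adenosyltransferase the form found outside adult hepatocytes was the higher, with Mat2a over Mat1a at 3.43 ± 0.02. Arginase went the other way, with Arg2 over Arg1 at -7.52 ± 0.66. Bhmt exceeded Mtr, the folate-dependent enzyme for the same reaction, by 2.71 ± 0.01. Of 60 recomputed values for 12 pairs under other settings, 0 changed sign. Only the mm9 RPKM values could have brought such a change. FPKM and an added constant keep the order of a pair, and the replicates alone are the values averaged above.

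**Figure D3:**
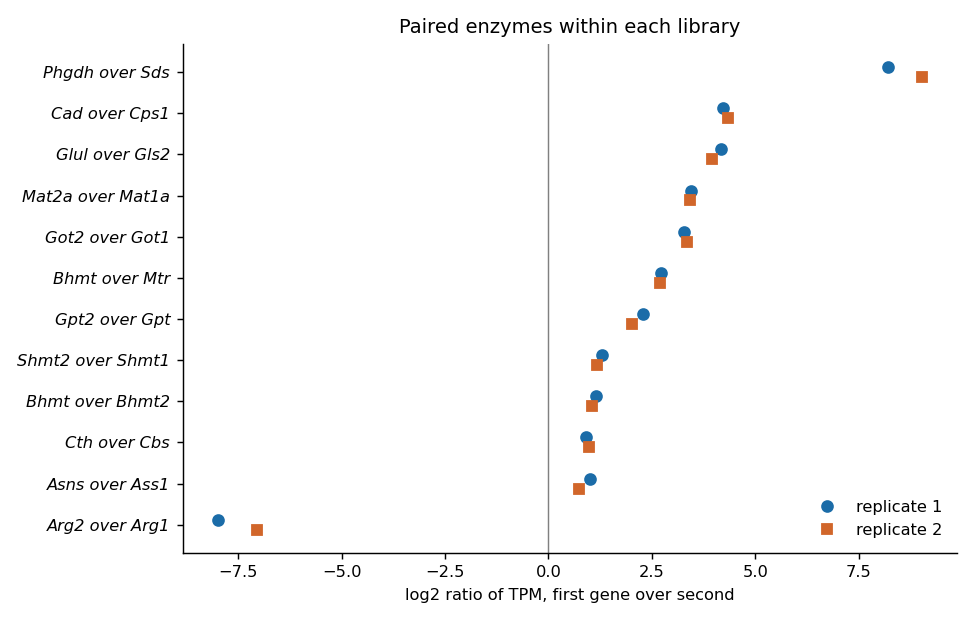
The log2 ratio of TPM, first gene over second, for 12 gene pairs in replicate 1 (circles) and replicate 2 (squares), with a line at 0 where both genes are level. Only Arg2 over Arg1 lies below 0, and the 2 libraries differ most for the pairs with Arg2 or Sds, which have few counts.

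The wider pathways were read from lists of non-members. Of 9 other genes of nitrogen handling, 6 reached 1 TPM in both libraries. Odc1, which starts polyamine synthesis from ornithine, stood at 305 and 365 TPM, Glud1, which releases ammonia from glutamate, at 168 and 196, and Oat, ornithine aminotransferase, at 36.8 and 39.5. All 6 other synthesis genes reached 1 TPM, led by Pcbd1 (65.5 and 76.0), Mthfd2, the mitochondrial folate enzyme of dividing cells (47.4 and 41.8), and Qdpr, which recycles tetrahydrobiopterin (28.3 and 32.9), with Pycr1 the lowest (4.25 and 4.09). Of 29 other breakdown enzymes, 24 reached 1 TPM and 1 reached 50 TPM, with Gstz1 first, then Qprt (30.7 and 34.5) and Bcat2 (29.8 and 34.4). Of 18 other one-carbon genes, 16 reached 1 TPM, with Tyms, thymidylate synthase, at 108 and 113 TPM, Mat2a at 73.1 and 82.7 and the cytosolic folate enzyme Mthfd1 at 45.0 and 47.9.

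The 2 libraries were compared gene by gene with a two-sided exact binomial test on counts, scaled by TMM (a method that aligns the bulk of genes) and adjusted by Benjamini-Hochberg at 0.05. Counting error is its only error, so it compares these libraries and not conditions. It called 20 of 41 members (48.8%), where 40.3% of all 18572 tested genes and 50.5% of protein-coding genes with at least 1000 counts were called. Of the 20, 16 were higher in replicate 2 (39.0% of members), a direction with 19.9% of all genes and 29% of protein-coding genes of that depth. Among the 37 members of that depth, 19 were called, 15 of them higher in replicate 2. By role, the calls higher in replicate 2 and in replicate 1 were 2 and 1 of 6 for the urea cycle, 2 and 1 of 5 for synthesis, 7 and 1 of 15 for breakdown, 3 and 0 of 6 for the methionine cycle, 1 and 1 of 5 for glycine and folate, and 1 and 0 of 4 for aminotransferases. Among non-members they were 4 and 0 of 9 for nitrogen handling, 1 and 2 of 6 for other synthesis, 7 and 3 of 27 tested for other breakdown, and 4 and 3 of 18 for other one-carbon genes. None of the 41 was called with at least 1.5-fold (8.67% of all genes), and edgeR's negative binomial exact test called 0 (2.54% of all genes). The largest called difference was 1.24-fold, for Cth. The negative binomial test sets single libraries against each other, with a spread estimated from these same 2 libraries. It could hardly call differences this small, so its 0 calls here and below do not show that the libraries are alike. Counts of direction rest on the scaling: the median of genes with at least 100 counts shifted by 0.01 with TMM and by 0.15 with unscaled TPM (log2), and 27 of 41 members were positive with TMM but 37 of 41 had the higher TPM in replicate 2.

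The called members higher in replicate 1 were Asns (log2 ratio, replicate 2 over replicate 1, -0.15), Cps1 (-0.23), Hpd (-0.12) and Shmt2 (-0.03). With TPM unscaled, Hpd and Shmt2 were slightly higher in replicate 2, and Asns (-0.0017) and Atf4 (-0.0064) were nearly level. Of 11 genes of the amino acid stress axis the binomial test called 9, 7 higher in replicate 1 and 2 higher in replicate 2, and edgeR's negative binomial test called 0. Atf4 itself, which encodes the factor, stood at 226 and 225 TPM (log2 ratio -0.15). Trib3, an ATF4 target, stood at 1.73 TPM in replicate 1 and 0.72 in replicate 2 (-1.31), and Chac1, another, at 1.94 and 0.91 (-1.23). Mthfd2 differed by -0.34. Phgdh and Psat1, also known ATF4 targets, went the other way with 0.09 and 0.11. Muscle and mesenchymal markers were higher in replicate 1 as given above. Granulocyte markers, 6 of 6, were called higher in replicate 2 (summed level 1251 TPM in replicate 1 and 1819 in replicate 2), and so were 6 of 8 macrophage markers (228 and 295). Of 10 fetal hepatocyte markers, 8 were called higher in replicate 2 and 2 in replicate 1, and of 9 erythroid markers 6 and 3. The summed level of hepatocyte markers was higher in replicate 2 (24503 TPM in replicate 1 and 27951 in replicate 2). That of erythroid markers was lower there (432348 and 395147), with the globin genes Hba-a2 at -0.33 and Hbb-bs at -0.23. The median log2 ratio was 0.06 for hepatocyte markers, 0.10 for erythroid, 0.26 for macrophage and 0.40 for granulocyte markers, beside 0.06 for the 41 members. The part of these markers in the differences between the libraries was not tested. Among listed non-members, Bcat1 (0.16 and 0.07 TPM, -1.35) and Nnmt (0.13 and 0.04, -2.14) were also called at over 2-fold, on few counts.

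**Figure D4:**
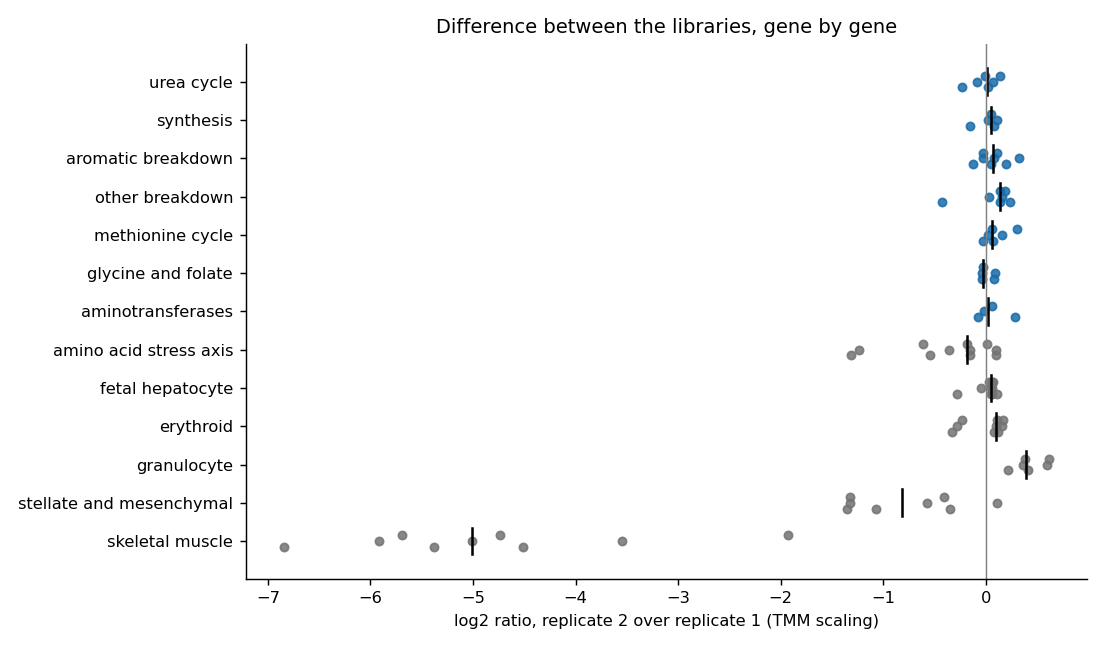
The log2 ratio of replicate 2 over replicate 1 (TMM scaling) for each gene with at least 10 counts, by list, with a black bar at the list median; the 7 lists of the 41 enzymes are blue and other lists grey. The enzymes stay between -0.43 and 0.32, while muscle markers reach -6.84.

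Transcript tables split each gene into its annotated forms. Of 31 members with at least 5 TPM, 30 had the same leading transcript in both libraries, and in 20 it held at least 90% of the gene's TPM. The exception was Asl, where Asl-202 and Asl-205 were level at 40.0% and 38.7% in replicate 1 and at 40.9% and 41.2% in replicate 2. In 30 of the 31 the leading transcript was protein-coding. In Ftcd it was the retained-intron form Ftcd-202 with 54.7% and 50.3%, which left the coding form Ftcd-201 with 9.49 and 13.9 TPM. Forms not annotated as protein-coding also took 36.6% and 37.1% of Nags, 21.1% and 18.6% of Shmt1, 15.1% and 13.1% of Amt and 14.5% and 11.5% of Psat1. Cbs was shared by Cbs-202 (50.7% and 51.1%) and Cbs-201 (34.2% and 36.0%).

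Splice junctions came from an older mm9 table whose replicates are not tied to the libraries above. Of 576 annotated introns of the members, 505 (87.7%) had reads in both of its replicates, against 63.8% of 243332 introns of all genes, and 16 of 41 members had reads over every intron. These counts ask for exact positions. With a junction of the same length up to 3 bases away also counted, an alternative chosen after seeing the data, 510 introns (88.5%, against 64.2% of all) and 18 of 41 members had them. Tat had reads over 11 of 12 introns with medians of 3 and 5, and Sds over 7 of 7 with medians of 3 and 6. Asns had medians of 1877 and 2690 reads per intron.

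Some members have near-copies elsewhere in the genome, which bears on how reads could be shared out. A search with each leading transcript found 12 members with another gene of at least 90% identity over 300 bases, Phgdh leading with 19 such genes, 17 of them pseudogenes. Those of Ahcy include Gm4737 (99.7% identity), with 814 and 1626 expected counts beside 21855 and 36435 for Ahcy, and that of Ass1 is Gm5424 (99.5%), with 281 and 579 beside 10082 and 17695. In the mm9 gene table, whose RPKM values ran at a median of 0.239 of the mm10 FPKM over protein-coding genes, Ass1 stood at 0.0359 of its mm10 value and Phgdh at 0.0570, the lowest of all 41. Got2 and Psat1 also have near-copies and stood at 0.264 and 0.308. The 29 members without a near-copy lay between 0.113 and 0.309, and Ahcy at 0.125 and Bhmt at 0.166 lay within that range. Junction reads per expected count were 0.0394 for Ahcy, 0.0730 for Bhmt, 0.237 for Phgdh and 0.390 for Ass1. Got2 and Glul, also with near-copies, had 0.238 and 0.257, and Asns, without one, had 0.936. The levels of Phgdh and Ass1 are given as uncertain for their mm9 values, and those of Ahcy and Bhmt for their junction reads. Those of Got2 and Glul share the doubt from junction reads. How reads of near-copies were assigned was not tested.

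**Figure D5:**
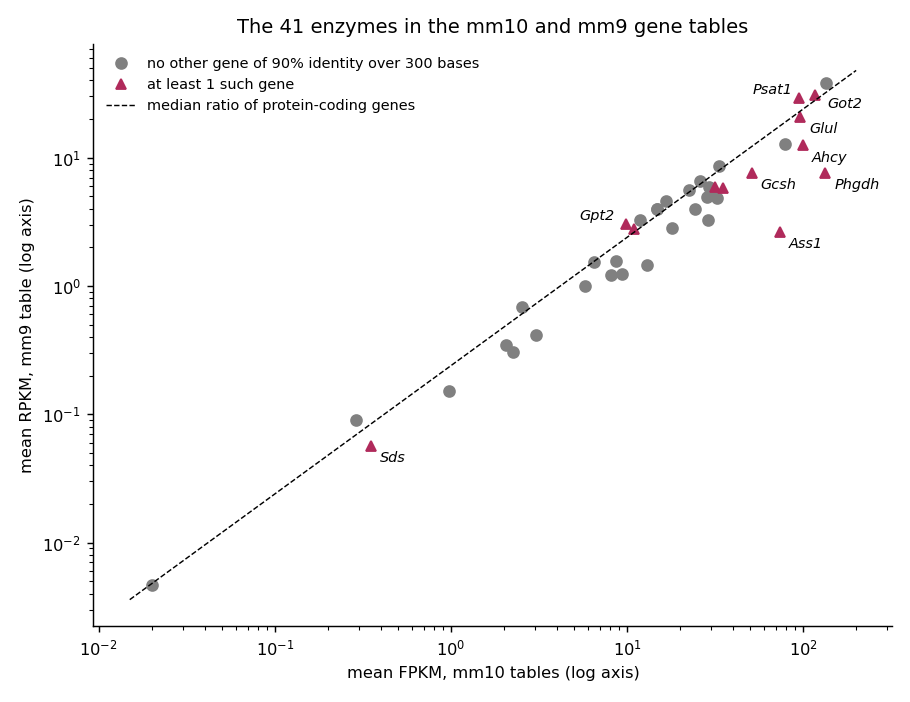
Mean RPKM in the mm9 gene table against mean FPKM in the mm10 tables (both log axes) for the 41 genes; triangles mark the 12 with a near-copy, and the dashed line is the median ratio of protein-coding genes, 0.239. Ass1 and Phgdh lie far below the line, while Got2 and Psat1 lie on or above it.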

How the data were processed

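Polyadenylated RNA was measured in 2 libraries of 1 group. The expected count, TPM and FPKM values per gene and transcript were deposited by the authors for mm10 with GENCODE M4, per the README files among the deposits. Which aligner and which quantifier made them was not given in the sources read here. The score used is the posterior SD of each count, per the file headers. The percent of a gene's TPM held by each transcript was also deposited by the authors. From older mm9 tables with ENSEMBL V65 came read counts per junction and RPKM per gene, as deposited, whose replicates are not tied to the libraries. Columns of other samples used: 0.

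Expected counts were rounded. Genes with at least 10 counts in total were tested as described in the report, with TMM factors from edgeR 4.0.16 in R 4.3.3. The edgeR negative binomial test took its dispersion from the same 2 libraries (biological coefficient of variation 0.191). The binomial test was checked on simulated counts that held counting error only, so that check cannot speak for any further spread between the libraries. Of 43346 genes, 42462 matched GENCODE M21, and of 201 listed symbols 200 did. Near-copies were sought with blastn 2.17.0 among GENCODE M21 transcripts. Motifs were counted in RefSeq promoters.

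Some genes of these pathways are not reported here. Members and lists were chosen with earlier results of these data known. Genes named are all 41 members, their paired enzymes, the 3 highest genes and the lowest of each pathway list, and list genes called at 2-fold or more; steps of pathways outside these were named after their values were seen. Alternatives were FPKM, mm9 RPKM, DESeq2 1.42.0 size factors, library totals, other thresholds, filters and lists, and each replicate alone. Tables and figures were made in Python 3.11.15 with pandas 2.3.3, numpy 2.4.6, matplotlib 3.10.9 and scipy 1.17.1.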

Additional observations from a re-analysis of the deposited data

How the results depend on the processing

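Synthesis stayed above the urea cycle, and the urea cycle above breakdown, under every alternative run. Synthesis over breakdown (log2, 3.93) was 4.12 as a mean of log2(TPM + 0.1) and 4.12 without Glul, 2.82 with members under 1 TPM left out, 3.21 with glycine cleavage enzymes added to breakdown and 2.74 with the methionine cycle added; the last, and the serine genes alone (3.89), were chosen after seeing the data. Synthesis over urea cycle (2.55) was 2.93 with mm9 RPKM, 2.70 as a mean, 2.13 with low members left out and 2.74 without Glul. Urea cycle over breakdown (1.38) was 0.89 with mm9 RPKM and 0.69 with low members left out. With each replicate alone the 3 ratios ran from 3.84 to 4.02, 2.55 to 2.55 and 1.28 to 1.47. The count of members at 10 TPM fell from 25 to 6 with mm9 RPKM, whose scale is lower. Members called between the libraries went from 20 to 0 with the negative binomial test and to 0 with a 1.5-fold minimum, and lay between 19 and 23 under other scalings and filters. Among the paired enzymes, 13 of 60 values moved by more than the spread and 0 changed sign, which only the mm9 RPKM values could have brought. With mm9 RPKM, Asns over Ass1 was 3.84, Mat2a over Mat1a 4.31, Gpt2 over Gpt 3.31, Shmt2 over Shmt1 0.59 and Cth over Cbs 0.34. Except where the construction shows it, the cause was not tested. With 2 libraries, the SD is only a rough guide, and counts limit Tdo2, Sds, Tat and Arg2. No paired analysis was possible because there is only 1 group.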

Other observations

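In 5 members an ENSEMBL intron on mm9 had 0 reads in both replicates of the junction list, while a junction of the same length lay 1 to 3 bases away. For Glul the annotated intron is chr1:155751829-155753478 and the listed junction chr1:155751827-155753476, with 932 and 1453 reads. The others were in Haao (183 and 358 reads), Gldc (333 and 580), Gpt2 (124 and 167) and Hal (36 and 58). With these junctions assigned to their introns, Haao had the largest share of junction reads off any annotated intron, 5.79%, led by chr17:84231736-84234530 with 43 and 76 reads, and Kynu followed with 4.67%. The 10 listed regulators of liver metabolism had a median of 3.24 and 3.52 TPM, below the 14.2 and 16.0 of the 41 members. Of them, 7 reached 1 TPM in both libraries, led by Hnf4a at 18.3 and 22.3 TPM, which lay above that member median. Cebpb followed at 12.4 and 16.0 and Cebpa at 12.4 and 14.6, with Nr1i3 the lowest at 0.56 and 0.85. Nr3c1, the glucocorticoid receptor, stood at 6.02 and 6.49 TPM.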
